A study of Mus musculus with 2 samples.

Results

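The T cell receptor β chain (TCRβ) clonotypes whose CDR3 carried a hydrophobic doublet at its centre were examined in T cells regenerated from embryonic stem cells. A clonotype is a group of reads with the same CDR3, the loop that spans the junction of the V, D and J segments. Clonotypes were taken when their first-listed J gene was a TRBJ gene and their CDR3 was productive (in frame, without a stop codon) and 11 to 17 residues long. A doublet clonotype had alanine, phenylalanine, isoleucine, leucine, methionine, valine, tryptophan or tyrosine at both residue 6 and residue 7, counted from the conserved cysteine at the start of the CDR3 as residue 1. The rule found 29 doublet clonotypes among 1118 productive clonotypes of that length in the thymus and 38 among 1644 in the spleen, out of 1640 and 2241 TCRβ clonotypes of any kind. The doublet clonotypes had 60 distinct CDR3 nucleotide sequences, of which 7 were found in both tissues. In 1 of the spleen, with 1 read, the CDR3 did not begin with cysteine and was counted from its first residue.

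The CDR3 loop of the β chain lies over the middle of the peptide held by an MHC molecule, and the residues at its centre usually make the contacts with that peptide. Hydrophobic residues at these positions have been linked to self-reactive receptors, and the thymus is where strongly self-reactive cells are removed or diverted. The central residues are encoded by the D segment, by nucleotides that terminal deoxynucleotidyl transferase adds without a template, by short palindromic additions at opened segment ends, and by whatever trimming leaves of V and J. The germline D segments of the mouse β locus are rich in G and encode glycine in every reading frame.

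The cells were iT cells, the T cells that arise in recipients of hematopoietic progenitors made from iR9-ESC. These are embryonic stem cells of C57BL/6 background (CD45.2) with a doxycycline-inducible Runx1-p2a-Hoxa9 cassette in Rosa26, and no group without the cassette was profiled. The recipients were irradiated B-NDG mice (CD45.1), which lack T, B and NK cells of their own. CD4 and CD8 single positive iT cells were sorted, 15000 per library, with 1 library from the thymus and 1 from the spleen. The methods list a gate without lineage-positive and TCRγδ+ cells for the thymus and a CD62L+CD44- gate for the spleen, while the study's text describes naïve cells from both, so whether the gates differed is not certain. Tissue, library and any difference in gate cannot be told apart. The sources used here do not give how many mice were pooled, or if the same mice gave both tissues. The libraries held TCR transcripts alone, so the labelled cell type could not be checked against other markers. The 1118 thymus clonotypes were counted from 1615211 reads and the 1644 spleen clonotypes from 2558086 reads. With 1 library per tissue no difference between tissues has a replicate check, and each test below compares the clonotypes of these libraries. It takes clonotypes as independent, although some differ by few nucleotides or were found in both libraries.

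Of the segments that meet at residues 6 and 7, both D segments and the start of TRBJ1-1 and TRBJ1-2 are shown first, because many doublets of both tissues drew on TRBD2 or on these J segments. In TRBD2 the capitals mark the 4 bases that read as leucine (CTG) or tryptophan (TGG) in 2 of its forward frames, and in the J segments they mark the 2 bases that complete an alanine codon (GCA) when a G precedes them.
TRBD1: gggacagggggc
TRBD2: gggaCTGGgggggc
TRBJ1-1: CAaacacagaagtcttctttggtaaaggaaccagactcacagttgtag
TRBJ1-2: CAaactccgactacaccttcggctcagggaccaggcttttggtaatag
In the GENCODE annotation of GRCm38 these lie on the plus strand of chromosome 6, TRBD1 from 41533201 to 41533212, TRBJ1-1 from 41533864 to 41533911, TRBJ1-2 from 41534001 to 41534048 and TRBD2 from 41542163 to 41542176. TRBD1 held no hydrophobic codon in any forward frame, TRBD2 held 1 in each of 2 frames, and neither held 2 hydrophobic codons in a row.

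CDR3s from among the 5 doublet clonotypes with most reads in each library follow, 8 sequences in all, of which the TRBV31 clonotype was among the first 5 of both. Codons 6 and 7 are in capitals.
TRBV13-3 with TRBJ1-2, alanine-alanine: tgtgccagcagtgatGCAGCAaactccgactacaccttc
TRBV4 with TRBJ2-1, alanine-leucine: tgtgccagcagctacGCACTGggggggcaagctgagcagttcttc
TRBV20 with TRBJ2-1, alanine-tyrosine: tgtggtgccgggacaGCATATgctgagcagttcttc
TRBV31 with TRBJ1-1, alanine-alanine: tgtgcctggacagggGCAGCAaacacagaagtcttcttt
TRBV13-3 with TRBJ2-1, tyrosine-alanine: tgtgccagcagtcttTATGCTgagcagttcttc
TRBV13-3 with TRBJ1-1, alanine-alanine: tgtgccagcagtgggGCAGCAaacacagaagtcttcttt
TRBV20 with TRBJ1-1, alanine-alanine: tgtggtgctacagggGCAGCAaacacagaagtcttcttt
TRBV4 with TRBJ2-7, valine-leucine: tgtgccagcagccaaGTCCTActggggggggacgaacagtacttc

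The leading doublet clonotype of the spleen, TRBV13-3 with TRBJ1-2, had 2483 reads there and 155 in the thymus. That of the thymus, TRBV4 with TRBJ2-1, had 1539 reads there and 0 in the spleen, where 3 reads would have been 0.000117% of the reads. The abundant doublet clonotypes were thus partly common to both tissues and partly found in 1 of them. TRBV20 with TRBJ2-1 had 1329 thymus reads and 516 spleen reads, and TRBV31 with TRBJ1-1 had 348 and 800. Both, and the TRBV13-3 with TRBJ1-2 clonotype, ranked among the 20 doublet clonotypes with most reads in both libraries. Of the others listed above, TRBV13-3 with TRBJ2-1 had 790 reads, TRBV13-3 with TRBJ1-1 had 707 and TRBV20 with TRBJ1-1 had 592 in the spleen, all with 0 in the thymus. TRBV4 with TRBJ2-7 had 256 thymus reads and 0 spleen reads. In the annotation of GRCm38 the V genes of these clonotypes lie on chromosome 6, TRBV4 from 41059394 to 41059886, TRBV13-3 from 41130147 to 41130585, TRBV20 from 41188273 to 41188977 and, on the minus strand, TRBV31 from 41557691 to 41558452.

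The first question was how frequent the doublet was in each tissue. It was carried by 2.59% of thymus clonotypes (29 of 1118, Wilson 95% interval 1.81% to 3.70%) and by 2.31% of spleen clonotypes (38 of 1644, 1.69% to 3.16%). The difference of 0.28 percentage points was not significant (p = 0.706 by a two-sided Fisher's exact test, and 1 after Benjamini-Hochberg adjustment over 13 tests). A hydrophobic residue at position 6 alone was found in 234 thymus and 301 spleen clonotypes, and at position 7 alone in 200 and 273. If both positions had been filled independently, the shares of 23.5% and 20.5% for the thymus and 20.6% and 18.9% for the spleen would have given 53.9 and 64.1 doublet clonotypes, so the counts of 29 and 38 were 0.538 and 0.593 times that product. The same ratio over out-of-frame clonotypes was 0.485 for the thymus and 0.759 for the spleen. These ratios are a description without a test.

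The share of clonotypes with adjacent hydrophobic residues varied along the loop. At residues 5 and 6 they were carried by 7.69% of thymus and 6.39% of spleen clonotypes, and at residues 7 and 8 by 3.67% and 3.41%. At residues 4 and 5 the shares were 0.805% and 0.426%. The shares at residues 6 and 7 lay between these values.

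Junctions that are out of frame give no receptor protein and were used as a comparison, reading codons 6 and 7 in the frame set by the V segment in CDR3s of 33 to 53 nucleotides. In the thymus 8 of 367 out-of-frame clonotypes carried a doublet (2.18%, 1.11% to 4.24%), against 2.59% of productive ones (two-sided Fisher's exact test, p = 0.847, adjusted p = 1). In the spleen 16 of 444 did (3.60%, 2.23% to 5.77%), against 2.31% (Fisher's exact test, p = 0.131, adjusted p = 0.287). Neither difference passed the threshold. Leucine or tryptophan stood at residue 7 in 12 of the 16 out-of-frame doublets of the spleen and in 4 of the 8 of the thymus, against 10 of 38 and 21 of 29 productive ones. Alanine at residue 7 with TRBJ1-1 or TRBJ1-2 was found in 0 of the out-of-frame doublets of either library. Where the first 2 bases of these J segments complete the alanine codon, V and J are in frame. This kind, 3 of 29 thymus and 14 of 38 spleen productive doublets, could therefore not occur out of frame. The out-of-frame share is not a like baseline for it. These kinds were not compared by a test. In any hydrophobic set, out-of-frame junctions read J in a frame that productive ones do not use. The baseline is therefore unlike wherever J reaches these codons, and how far this bears on the shares was not tested. Without alanine and tyrosine in the hydrophobic set, the spleen shares were 0.304% of productive (5 of 1644) and 2.25% of out-of-frame clonotypes (10 of 444), a difference that did pass (Fisher's exact test, adjusted p = 0.00238). Without a V-J pair that gave related junctions in and out of frame, 4 of 1630 and 7 of 439 remained (adjusted p = 0.0357 by Fisher's exact test). In the thymus the same set gave 9 of 1118 and 5 of 367 (Fisher's exact test, adjusted p = 0.510). The libraries were not shown to differ in this (Zelen's exact test of equal odds ratios, p = 0.0712, adjusted p = 0.427 over 6 tests). With the full set, the same exact test gave p = 0.231 and an adjusted p of 0.462.

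Each tissue had its own most frequent doublet. In the thymus alanine-leucine was carried by 8 of the 29 doublet clonotypes (27.6%, Wilson 95% interval 14.7% to 45.7%), followed by alanine-alanine, leucine-leucine and valine-leucine with 3 each. In the spleen alanine-alanine was carried by 15 of 38 (39.5%, 25.6% to 55.3%), against 10.3% in the thymus (3.58% to 26.4%), followed by alanine-leucine, alanine-tryptophan and alanine-tyrosine with 3 each. Alanine, a small residue that counts among the weakest of the hydrophobic set, stood at residue 6 in 17 of 29 thymus and 26 of 38 spleen doublet clonotypes. Of the clonotypes hydrophobic at residue 6 alone, 97 of 234 in the thymus and 138 of 301 in the spleen had alanine there. At residue 7, leucine stood in 15 thymus and 5 spleen clonotypes and alanine in 4 and 20. Of the clonotypes hydrophobic at residue 7 alone, 53 of 200 in the thymus and 66 of 273 in the spleen had leucine. Alanine stood there in 50 and 87 of them. No doublet clonotype of either library had phenylalanine or methionine at residue 6 or isoleucine at residue 7. These were rare in the other clonotypes too, each with a share between 0.187% and 0.560%. The doublets were ranked by their counts, so their difference between tissues was not tested.

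**Figure D1:**
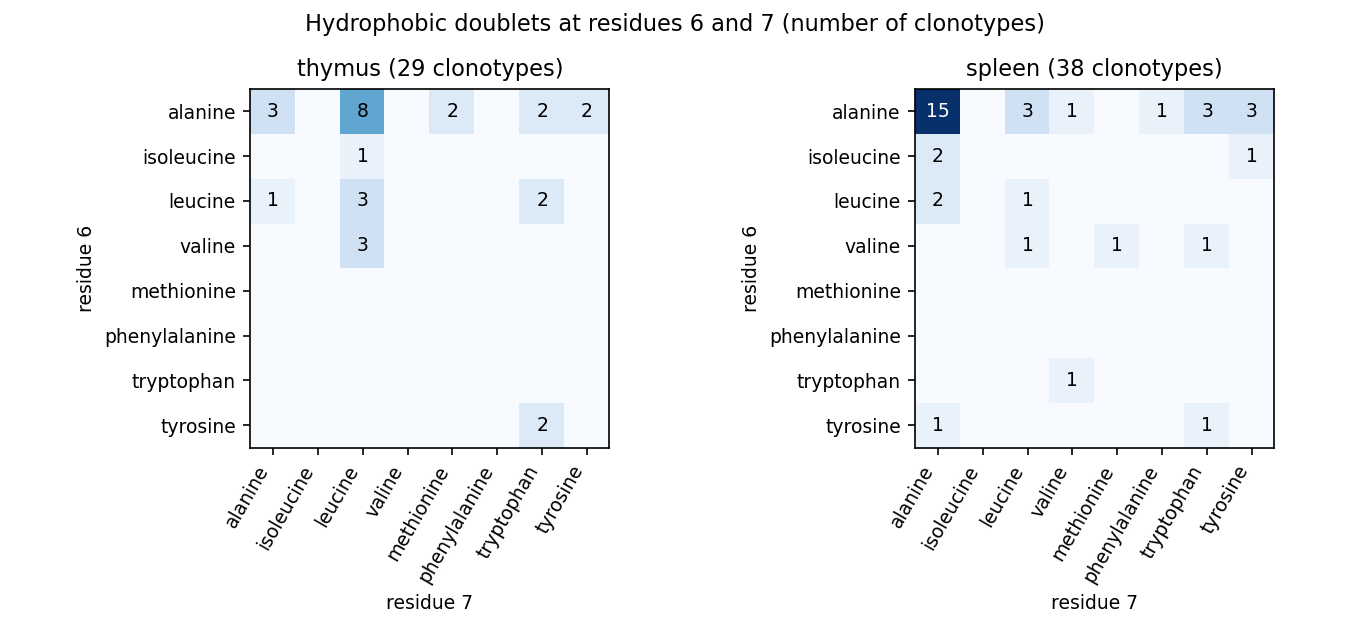
Number of doublet clonotypes for each pair of residue 6 (rows) and residue 7 (columns), in the thymus library (left, 29 clonotypes) and the spleen library (right, 38 clonotypes). Empty squares are 0. The thymus counts gather at leucine in residue 7 (15 clonotypes), and the spleen counts at alanine-alanine (15 clonotypes).

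The spleen alanine-alanine doublets had mostly the same J segments. Of the 15, 14 used TRBJ1-1 or TRBJ1-2 and 12 had 13 residues, and together the 15 held 6583 of the 11945 reads of spleen doublet clonotypes. Over all 1644 spleen clonotypes, 181 used TRBJ1-1 and 282 used TRBJ1-2. In the thymus 56 and 243 of 1118 did. In 14 spleen clonotypes with TRBJ1-1 or TRBJ1-2 and alanine at residue 7, the next residue was the asparagine encoded by the first complete codon of these J segments, so that the alanine codon was completed by the CA in capitals above. This places the remaining J codons so that all 14 had 13 residues. The thymus had 3 such clonotypes. The same alanine before asparagine was found in 29 spleen and 7 thymus clonotypes without a hydrophobic residue 6. The codons were GCA at both positions in 11 spleen and 2 thymus clonotypes.

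Leucine or tryptophan stood at residue 7 in 21 of the 29 thymus doublet clonotypes and in 10 of the 38 in the spleen. Of these, 15 thymus and 7 spleen clonotypes had TRBD2 assigned, and in 15 and 7 the next residue was glycine. The codon at residue 7 was CTG in 7 and TGG in 6 thymus clonotypes with TRBD2, the leucine and tryptophan of its 2 frames, and these numbers were 2 and 5 in the spleen. Both frames are shown by a spleen clonotype with TGG (545 reads) and a thymus clonotype with CTG (225 reads).
TRBV13-1 with TRBJ2-7, alanine-tryptophan: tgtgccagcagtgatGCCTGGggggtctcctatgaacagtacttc
TRBV13-2 with TRBJ2-7, alanine-leucine: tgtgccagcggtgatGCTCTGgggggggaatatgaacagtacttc
A D gene was assigned to 24 of 29 thymus doublet clonotypes (82.8%, Wilson 95% interval 65.5% to 92.4%) against 69.3% of the other thymus clonotypes, and to 18 of 38 in the spleen (47.4%, 32.5% to 62.7%) against 71.0% of the others. Among those with a D gene, TRBD2 was assigned to 17 of 24 doublet clonotypes in the thymus (other clonotypes 57.2%) and to 12 of 18 in the spleen (other clonotypes 42.1%). The rule bears on these D shares, because TRBD1 held no hydrophobic codon in any forward frame, so they are a description only.

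The nucleotides behind the doublet were next traced to their source with the alignment ends that MiXCR gives for each clonotype. The rule chose the doublet clonotypes by these codons. Differences from the other clonotypes here therefore follow in part from the rule and are a description only. Codon 6 was mostly not assigned to a single germline segment, although its first base could still come from V. It had fewer than 2 of its 3 nucleotides from V, from D or from J in 24 thymus (82.8%) and 32 spleen (84.2%) doublet clonotypes, against 40.1% and 35.9% of other clonotypes. Codon 7 came from D in 15 of 29 thymus doublet clonotypes and from J in 4. In the spleen it came from J in 17 of 38 and from D in 9. It was not assigned to a single segment in 12, among them the leading doublet clonotype, where it was aligned to 2 segments. In the other clonotypes of thymus and spleen, codon 7 came from D in 56.4% and 57.2% and from J in 18.7% and 18.2%. Over both codons, V germline nucleotides made up 9.20% in thymus and 9.21% in spleen doublet clonotypes, against 6.72% and 7.08% in the others. Inserted nucleotides made up 25.9% in thymus and 31.1% in spleen doublet clonotypes, against 21.4% and 19.0% in the others. Nucleotides aligned past the germline end of a segment, where MiXCR extends the segment as a palindrome, made up another 20.7% and 18.9%, against 8.77% and 9.65%. In the TRBV4 with TRBJ2-7 clonotype listed above they covered both codons. Whether all are true palindromic additions was not tested.

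**Figure D2:**
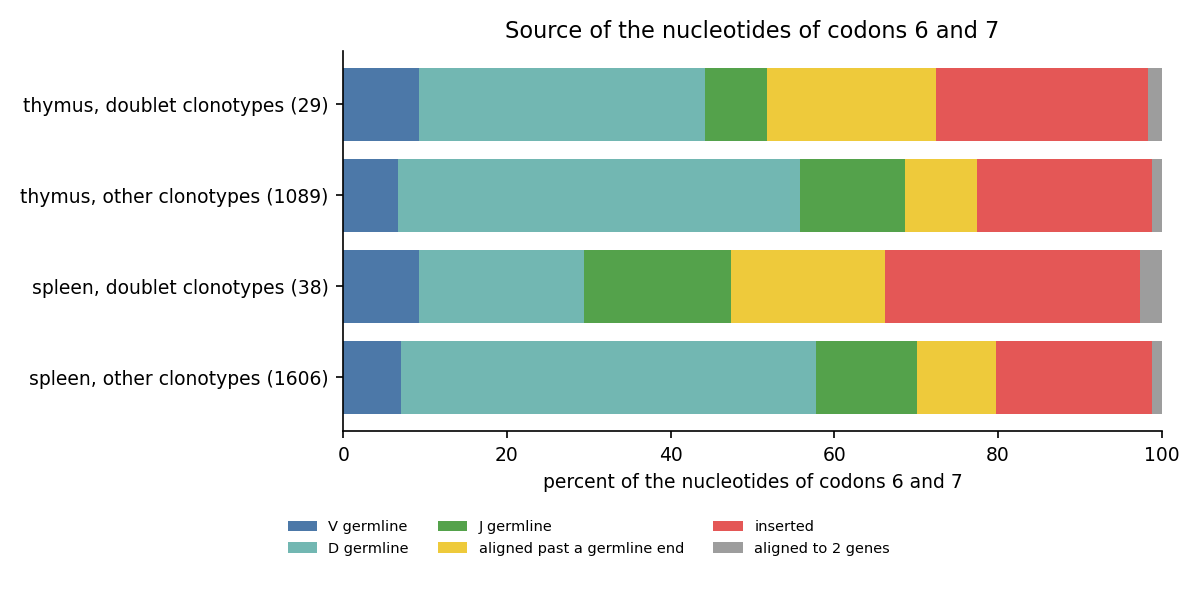
Source of the 6 nucleotides of codons 6 and 7, in percent of these nucleotides over all clonotypes of a group (horizontal axis), for doublet and other clonotypes of each library (rows, number of clonotypes in brackets). Nucleotides outside all aligned segments are called inserted. D germline sequence made up 35.1% and 20.2% in thymus and spleen doublet clonotypes, against 49.0% and 50.7% in the others. The rule chose the doublet clonotypes by these codons, so it bears on these shares.

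The number of inserted nucleotides in these codons is given as a description only. The rule chose the members by these codons, and neither D segment alone encodes 2 hydrophobic residues in a row, so a doublet with an assigned D gene needs other nucleotides there. Among clonotypes with a D gene, 19 of 24 doublet clonotypes in the thymus (79.2%) and 15 of 18 in the spleen (83.3%) had at least 1 inserted nucleotide, and 34.7% and 32.9% of the others did. With nucleotides past a germline end counted as inserted, the thymus had 24 of 24 against 392 of 755, and the spleen 18 of 18 against 561 of 1140. The numbers below do not count these. The median number was 1.5 in the doublet clonotypes of both tissues and 0 in the others, with at most 6 in thymus and 4 in spleen doublet clonotypes.

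Glycine beside the doublet, at residue 5 or 8, was found in 18 of 29 thymus doublet clonotypes (62.1%, Wilson 95% interval 44.0% to 77.3%), against 39.3% of the others (two-sided Fisher's exact test, p = 0.0197, adjusted p = 0.0852). In the spleen it was found in 16 of 38 (42.1%, 27.9% to 57.8%), against 37.5% (Fisher's exact test, p = 0.613, adjusted p = 1). Neither passed the threshold after adjustment. The rule bears on this contrast in part, because a glycine codon follows the leucine and tryptophan codons in germline TRBD2. Leucine or tryptophan at residue 7 preceded the glycine in 15 of these 18 thymus and 7 of these 16 spleen clonotypes. No conclusion about the doublet is drawn from the contrast. With CDR3s of any length from 9 residues the thymus contrast passed, with 19 of 30 against 443 of 1159 clonotypes (Fisher's exact test, adjusted p = 0.0314). These libraries were not shown to differ in the glycine contrast, with p = 0.212 and an adjusted p of 0.462 over lengths of 11 to 17 residues, and 0.139 and 0.418 from 9 residues (Zelen's exact test).

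The length of the CDR3 was compared in the same way. In the thymus the doublet was rarer in CDR3s of 11 to 13 residues (6 of 429, 1.40%) than in those of 14 to 17 (23 of 689, 3.34%), a difference that did not pass after adjustment (two-sided Fisher's exact test, p = 0.0531, adjusted p = 0.173). In the spleen the values lay the other way, with 20 of 662 (3.02%) against 18 of 982 (1.83%; Fisher's exact test, p = 0.133, adjusted p = 0.287). The contrast between both libraries had a p of 0.0201 in Zelen's exact test and an adjusted p of 0.120. Over clonotypes found in 1 library only, the same comparison passed, with differences of -2.59 percentage points in the thymus and 1.52 in the spleen (Zelen's exact test, p = 0.00770, adjusted p = 0.0385). The spleen share was highest at 13 residues among lengths with over 100 clonotypes (15 of 350, 4.29%), the length of the alanine-alanine junctions with TRBJ1-1 and TRBJ1-2, and the thymus had 3 of 218 (1.38%) there. The thymus share was 4.33% at 15 residues (10 of 231), where the spleen had 1.79% (6 of 335). At 11 residues the thymus had 0 of 51 clonotypes with a doublet, which allows a share of up to 5.88% (taking 3 clonotypes as the limit of a count of 0, as for the genes below). The median length of doublet CDR3s was 15 residues in the thymus and 13 in the spleen, against 14 for the other clonotypes of both.

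**Figure D3:**
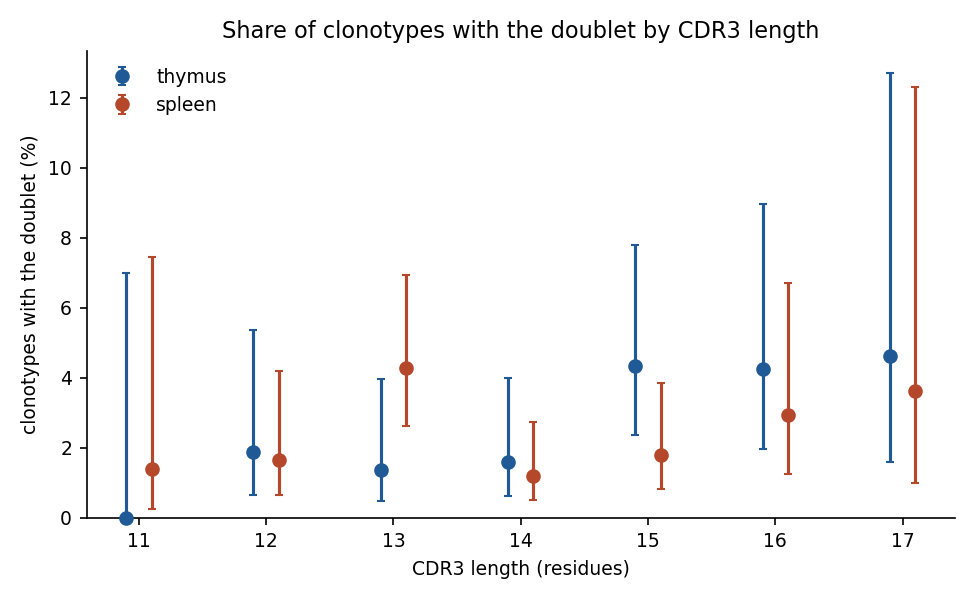
Share of productive TCRβ clonotypes with the doublet (vertical axis, percent) by CDR3 length in residues (horizontal axis), for the thymus and spleen libraries. Bars are Wilson 95% intervals, which cover counting error only. The spleen share reached 4.29% at 13 residues, where the thymus share was 1.38%, and the thymus share was 4.33% at 15 residues, where the spleen share was 1.79%.

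Doublet clonotypes were spread over 15 V genes in either library. Some V genes encode residue 6, so V use is not wholly independent of the rule. Of the 17 V genes with at least 20 clonotypes in the thymus, 0 differed from the other V genes at an adjusted p of 0.05 (0%), and 5.88% (1 gene) at an unadjusted p under 0.05. The 18 V genes tested in the spleen gave 0 (0%) and 5.56% (1 gene). The thymus gene was TRBV4, with a doublet in 4 of 36 clonotypes (11.1%, Wilson 95% interval 4.41% to 25.3%) against 2.31% of the other V genes (two-sided Fisher's exact test, p = 0.0121, adjusted p = 0.206). In the spleen 0 of 24 TRBV4 clonotypes had one, which allows a share of up to 12.5%. The spleen gene was TRBV20, with 8 of 125 (6.40%, 3.28% to 12.1%) against 1.97% (Fisher's exact test, p = 0.00624, adjusted p = 0.112). In the thymus TRBV20 had 1 of 78 (1.28%). After these, the highest shares among the tested V genes were those of TRBV12-1 (1 of 20, 5%) and TRBV13-1 (3 of 62, 4.84%) in the thymus, and of TRBV12-1 (1 of 23, 4.35%) and TRBV13-3 (4 of 96, 4.17%) in the spleen. TRBV12-2 had 1 of 18 (5.56%) in the thymus, too few clonotypes to be tested. No doublet was found with TRBV1 (of 53 clonotypes), TRBV17 (of 40) and TRBV29 (of 29) in the thymus, nor with TRBV17 (of 41) and TRBV29 (of 59) in the spleen, where TRBV1 had 1 of 102. Counts of 0 allow shares of up to 5.66%, 7.5% and 10.3% for the thymus genes and 7.32% and 5.08% for the spleen genes.

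**Figure D4:**
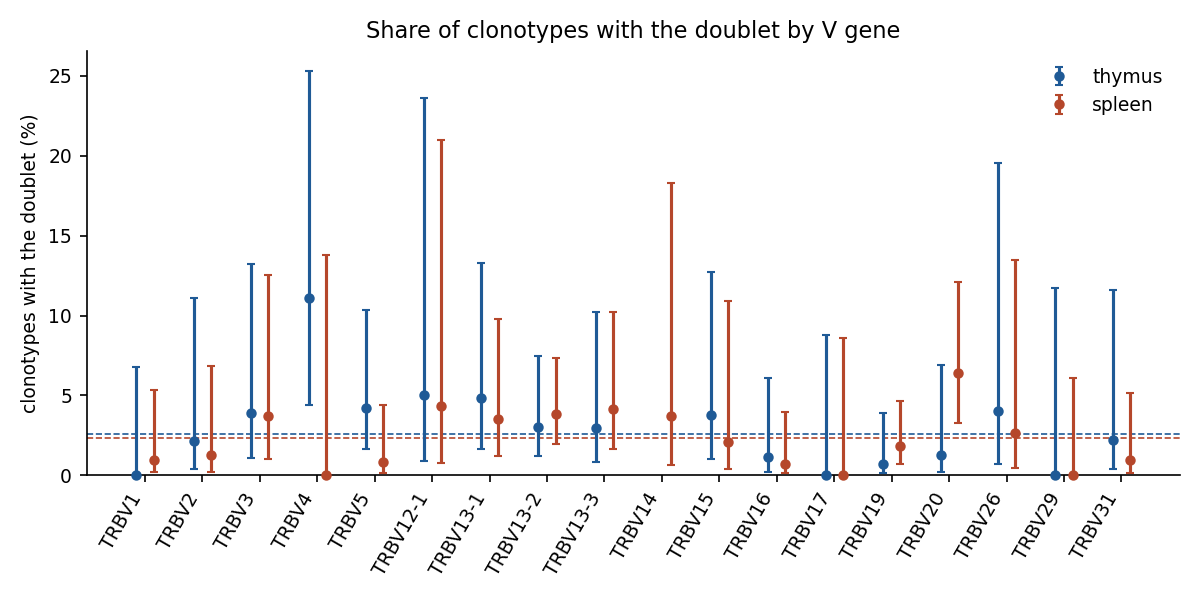
Share of productive TCRβ clonotypes with the doublet (vertical axis, percent) for each V gene with at least 20 clonotypes (horizontal axis), in the thymus and spleen libraries. Bars are Wilson 95% intervals and dashed lines are the shares over all V genes, 2.59% and 2.31%. The intervals of TRBV4 in the thymus and TRBV20 in the spleen lay above these lines, and neither gene passed after adjustment.

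In short CDR3s a J gene can encode residue 7, so J use is not wholly independent of the rule. Among J genes, 0 of the 11 tested in the thymus passed the adjusted threshold (0%) and 9.09% (1 gene) had an unadjusted p under 0.05. In the spleen, 0 of the 12 tested passed either (0%). The thymus gene was TRBJ2-7, on chromosome 6 from 41543810 to 41543856 in GRCm38, with a doublet in 9 of 176 clonotypes (5.11%, Wilson 95% interval 2.71% to 9.43%) against 2.12% of the other J genes (two-sided Fisher's exact test, p = 0.0345, adjusted p = 0.379). It had 5 of 257 (1.95%) in the spleen. Over clonotypes found in 1 library only, TRBJ2-7 passed in the thymus, with 9 of 128 (7.03%) against 1.88% (Fisher's exact test, adjusted p = 0.0308). TRBJ2-4 had 5 of 99 (5.05%) and TRBJ2-1 had 5 of 137 (3.65%) in the thymus. In the spleen the highest shares were those of TRBJ1-1 (8 of 181, 4.42%), TRBJ1-2 (10 of 282, 3.55%) and TRBJ2-1 (6 of 172, 3.49%), and the thymus shares of TRBJ1-1 and TRBJ1-2 were 3.57% (2 of 56) and 1.23% (3 of 243). TRBJ1-3, TRBJ1-5 and TRBJ2-2 had no doublet clonotype in either library, nor had TRBJ1-6 in the thymus. TRBJ1-3 had 18 clonotypes in the thymus, too few to be tested there. The limits of the counts of 0 of tested J genes lay between 6.25% and 13.6%.

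Doublet clonotypes were of middle abundance. Reads per clonotype ranged from 1 to 1539 in the thymus, with a median of 112, and from 1 to 2483 in the spleen, with a median of 213. The other clonotypes had medians of 112 and 159 and ranged up to 475490 and 1552980. Above the median of all clonotypes of the library were 14 of 29 doublet clonotypes in the thymus (48.3%) against 49.5% of the others (two-sided Fisher's exact test, p = 1, adjusted p = 1). In the spleen 20 of 38 were (52.6%), against 49.9% (Fisher's exact test, p = 0.746, adjusted p = 1). The most abundant doublet clonotype ranked 52 among the thymus and 23 among the spleen clonotypes, and 3 of each library were among the first 100. None of the 10 leading clonotypes, which held 78.3% and 83.0% of the reads, had a doublet. Doublet clonotypes thus held 7081 thymus reads (0.438%, 0.428% to 0.449%) and 11945 spleen reads (0.467%, 0.459% to 0.475%), less than their shares of clonotypes. Over clonotypes found in 1 library only, where the leading clonotypes common to both libraries are left out, they held 2.64% of thymus and 2.77% of spleen reads and made up 2.68% and 2.30% of the clonotypes. Of the 29 in the thymus 4 had 1 read, and of the 38 in the spleen 1 did.

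**Figure D5:**
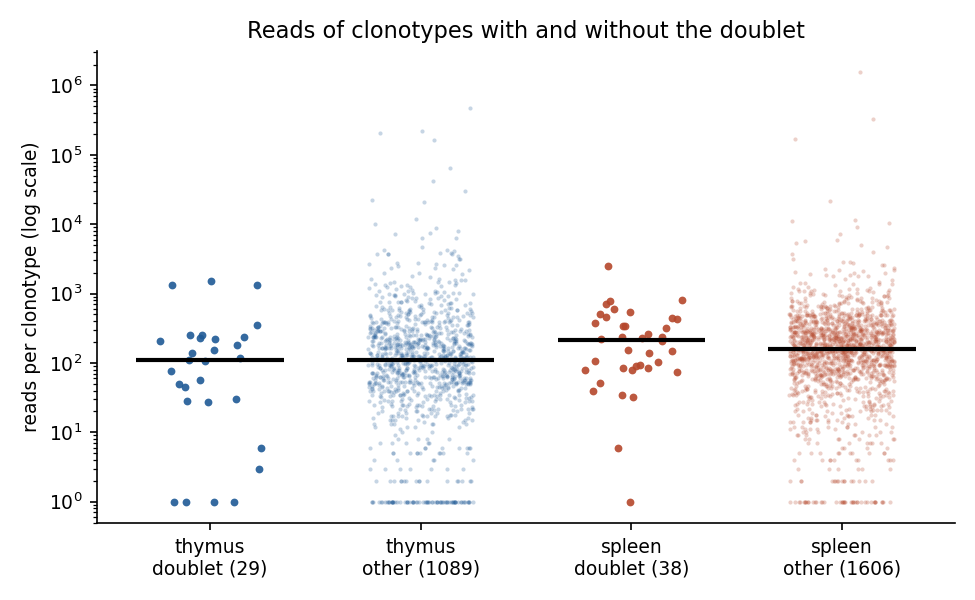
Reads per clonotype (vertical axis, log scale) of doublet clonotypes and other productive TCRβ clonotypes of 11 to 17 residues in each library, 1 point per clonotype, with the number of clonotypes in brackets and the median as a black line. The medians were 112 and 112 for the thymus and 213 and 159 for the spleen, and all clonotypes above 2483 reads were without the doublet.

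The 7 doublet clonotypes found in both tissues made up 24.1% of those in the thymus and 18.4% of those in the spleen. Among the other clonotypes 26.7% and 18.1% were in both (two-sided Fisher's exact test, p = 0.835 for the thymus and 1 for the spleen, both 1 after adjustment). The 7 in both held 47.6% of the thymus and 35.4% of the spleen reads of doublet clonotypes. Among the other clonotypes, those in both tissues held 91.5% and 89.4% of the reads, without a test since reads are not independent. Beside the ones given above with TRBV13-3, TRBV20 and TRBV31, they included a valine-leucine clonotype of TRBV15 with TRBJ2-4, with 204 thymus and 35 spleen reads, a leucine-alanine clonotype of TRBV26 with TRBJ2-4, with 1 and 104, and an alanine-leucine clonotype of TRBV13-1 with TRBJ1-4, with 1 and 80. In the TRBV26 and TRBV13-1 clonotypes the thymus count was a single read, under the floor of 3. Over the CDR3 protein, 8 were common to both tissues, because an alanine-alanine CDR3 of TRBV2 with TRBJ1-2 was encoded by different nucleotides in the thymus (45 reads) and in the spleen (32 reads). Another alanine-alanine CDR3 with TRBJ1-1 was encoded in 2 ways within the spleen, with TRBV13-3 (431 reads) and with TRBV13-2 (105 reads). The TRBV13 genes are close paralogs, so which of them a clonotype used is less certain than for other V genes. The pairs are shown because the same protein then came from separate junctions as assembled, which differed at 2 nucleotides in the first pair and at 1 in the second.
TRBV2 with TRBJ1-2, thymus: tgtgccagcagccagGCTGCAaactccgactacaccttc
TRBV2 with TRBJ1-2, spleen: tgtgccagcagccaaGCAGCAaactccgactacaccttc
TRBV13-3 with TRBJ1-1, spleen: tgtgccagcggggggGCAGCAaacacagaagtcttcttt
TRBV13-2 with TRBJ1-1, spleen: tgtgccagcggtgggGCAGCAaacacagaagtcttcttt

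With the V-J pair that gave related junctions in and out of frame left out and the full hydrophobic set, the doublet was carried by 6 of 364 out-of-frame clonotypes in the thymus and by 13 of 439 in the spleen, against 27 of 1109 and 37 of 1630 productive ones. A single spleen clonotype with a doublet (alanine-valine, TRBV19 with TRBJ2-5, 6 reads) lay 1 nucleotide away from a clonotype that lacked the doublet and had at least 20 times its reads. Sequences that differed by more, or in length, were not checked for errors. Among them is a spleen clonotype of TRBV20 with TRBJ2-1 with 1 read, close in sequence to the TRBV20 with TRBJ2-1 clonotype listed above.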

How the data were processed

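TCR transcripts of 2 libraries were amplified with a commercial mouse TCRαβ profiling kit and sequenced on a MiSeq. The authors aligned and assembled clonotypes with MiXCR and deposited, without normalization, the read count of each clonotype, its fraction of all reads, its alignment scores and the lowest base quality score of its CDR3. No molecular identifiers are stated, so intervals and floors (3 reads) cover counting error only. Members and lists were chosen with earlier results of these data known.

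Here, counts were used without a read minimum. A nucleotide of codons 6 and 7 was inserted when it lay outside the aligned V, D and J. Shares were compared by two-sided Fisher's exact tests, adjusted by Benjamini and Hochberg over 13 tests (2 of them on inserted nucleotides, given as a description because the rule bears on them), or per library over V or J genes with at least 20 clonotypes, and contrasts between libraries by Zelen's exact test. The rule also bears in part on the tests of glycine, of V and J genes and of length. Some V genes encode residue 6, and in short CDR3s a J gene can encode residue 7. The tests on inserted nucleotides count in the adjustment of the others. The tests were tested on simulated data. Named were the V and J genes past the threshold, the 3 highest and 3 lowest shares per library (genes tied at 0 included), the 5 most frequent doublets, the 5 doublet clonotypes with most reads, and those among the first 20 of both libraries. Families, same-protein pairs and frame examples were chosen after their values were seen. All 39 gene names used matched GENCODE. Python 3.11.15, pandas 2.3.3 and scipy 1.17.1 were used. 1 of the leading doublet clonotypes is not reported here. TCRα clonotypes and the other experiments were not analysed here.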

Additional observations from a re-analysis of the deposited data

Results flagged for a closer look

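A doublet also appeared outside the lengths compared: 1 productive thymus clonotype of 18 residues, TRBV3 with TRBD2 and TRBJ2-2, had alanine-leucine at residues 6 and 7 and 145 reads, above the limit of 3 reads that a count of 0 allows. The spleen had 0 such clonotypes among its 62 productive CDR3s of other lengths. Codons 6 and 7 are in capitals.
TRBV3 with TRBJ2-2: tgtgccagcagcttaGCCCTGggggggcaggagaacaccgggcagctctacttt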

How the results depend on the processing

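Of 184 values under alternatives, 159 kept their direction and their side of the threshold (or, for counts and shares without a test, stayed near the reported value). These include an alternative that chose the chain by the V gene. It gave the same counts as the main setting throughout and so was no check. The inserted nucleotides of codons 6 and 7, which the rule bears on, kept their direction in both libraries, and no stability is read from it. Differences are in percentage points, as doublet less other clonotypes, productive less out of frame, CDR3s up to 13 residues less longer ones, or thymus less spleen. Most changes of direction were in differences near 0. With at least 2 reads the thymus out-of-frame comparison gave -0.0938, thymus reads above the median 2.30 and spleen clonotypes in both tissues -1.78. With at least 10 reads these were -0.217, 6.68 and -0.55, and the difference between tissues was -0.00293. Without alanine and tyrosine the out-of-frame comparison gave -0.557 in the thymus and -1.95 in the spleen (now past the threshold). Length gave -1.31 in the thymus (0 of 429 against 9 of 689) and -0.256 in the spleen. The thymus length contrast had an adjusted p of 0.0496 (Fisher's exact test). Both tests on inserted nucleotides, which the rule bears on, ranked above it, so no pass is read from it. In the same set, thymus reads above the median gave 6.14, and the read shares of doublet clonotypes were 0.151% and 0.0318%. With the V-J pair of related junctions also left out, an alternative chosen after seeing the data, the out-of-frame comparison gave -0.193 for the thymus and -1.35 for the spleen (past the threshold). Over clonotypes of 1 library only, glycine gave -2.84 in the spleen, doublet clonotypes held 2.64% of thymus and 2.77% of spleen reads, 1 contrast (length) differed between libraries and 1 J gene (TRBJ2-7, thymus) passed. With any length of at least 9 residues the thymus out-of-frame comparison gave -0.147 and thymus reads above the median 3.55. Thymus glycine, a contrast that the rule bears on in part, gave 25.1 there. Its adjusted p (Fisher's exact test) was under 0.05 but is not read as a pass, for the reason given above. Weighted by reads, the difference between tissues was -0.0286. What caused these changes was not tested. No paired analysis was possible because each tissue had 1 library, which also leaves no replicate to leave out. Depth sets narrow intervals for shares of reads, while the 29 and 38 doublet clonotypes limit every comparison.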
